A study of Mus musculus with 6 samples.

Results

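The genes described here are 9 contractile genes that are not part of the cardiac sarcomere: the smooth muscle genes Acta2, Tagln, Cnn1, Myh11, Myl9 and Actg2, and the non-muscle genes Myh9, Myh10 and Tpm4. They were chosen by name with earlier results of these data known, and all 9 were found among the 21298 features of the count table. Counts were made by Drop-seq, which captures the 3' ends of transcripts and counts molecules by unique molecular identifiers (UMIs), in cells of adult mouse hearts. Control mice carried Myh6-MCM, a tamoxifen-activated Cre recombinase under the promoter of Myh6, which is active in cardiomyocytes. YAP5SA mice carried Myh6-MCM and a Yap5SA transgene (Yap5SA+/tg), which encodes a YAP that the kinases Lats1 and Lats2 cannot phosphorylate, and both groups received tamoxifen. For each genotype there were 3 libraries: 2 of cells from the whole dissociated heart, called tissue here, and 1 of cardiomyocytes enriched by settling. The labels give the age as adult only, and do not say how many animals were pooled in a library or whether the libraries came from different animals, so the p-values measure the spread between libraries.

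Muscle and non-muscle cells contract when myosin motors pull on actin filaments, and each cell type uses its own set of actin, myosin and regulatory proteins. Smooth muscle of the vessel wall uses alpha smooth muscle actin (Acta2), the smooth muscle myosin heavy chain (Myh11), its regulatory light chain (Myl9), and the actin-binding proteins transgelin (Tagln) and calponin 1 (Cnn1). Non-muscle myosin heavy chains (Myh9, Myh10) and the short tropomyosin Tpm4 work in the cell cortex, in stress fibres and, for the myosins, in the ring that divides a cell. Acta2 is also made in the embryonic heart before the cardiac and skeletal actins take over, and many of these genes are controlled by serum response factor (SRF) through DNA elements called CArG boxes. YAP acts through TEAD factors, which bind MCAT elements.

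The sites below are shown because these elements are the ones through which SRF and TEAD factors bind DNA. Promoter windows of 250 bases before the transcript start were given for 6 of the 9 genes (RefSeq, build GRCm38.p6) and not for Tagln, Myh11 and Actg2. Both strands were searched for CATTCC, the core of an MCAT element, for the CArG box, and for the CArG box with 1 of its central A or T bases changed to C or G. Each line holds 30 bases, 5′ to 3′ on the strand of the gene, with the matched letters in capitals.
Acta2, changed CArG box, chr19:34255438-34255467, minus strand: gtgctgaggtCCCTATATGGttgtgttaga
Acta2, changed CArG box, chr19:34255388-34255417, minus strand: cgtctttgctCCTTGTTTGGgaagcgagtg
Acta2, CATTCC on the other strand, chr19:34255502-34255531, minus strand: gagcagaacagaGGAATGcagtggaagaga
Myl9, CArG box, chr2:156775293-156775322, plus strand: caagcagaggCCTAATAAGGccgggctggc
Myl9, changed CArG box, chr2:156775355-156775384, plus strand: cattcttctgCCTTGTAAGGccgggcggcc
Myh10, CATTCC, chr11:68691885-68691914, plus strand: cgggagcgggagccaatgagcatCATTCCa

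The windows of Cnn1, Myh9 and Tpm4 held none of these letters. Of 32851 promoter windows in the table, 1.47% held a CArG box, 7.24% one with 1 changed base and 12.6% CATTCC. The 3 Acta2 sites lie within an annotated exon of GENCODE and the other 3 sites in none. A match describes the letters in this window and does not show that a factor binds there.

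The 6 libraries held 21706 cells and 50784032 UMIs, from 3382656 to 13483791 UMIs a library. The authors' 17 clusters were taken as 8 classes, with CM1, CM2, CM3 and YAP5SAcm as cardiomyocytes. Cardiomyocytes numbered 282 to 1173 a library and smooth muscle cells 22 to 88, which limits the precision in smooth muscle cells. The smooth muscle cells held 4312 to 7038 counts per 1000000 UMIs (CPM) on 11 smooth muscle and pericyte markers that are none of the 9 genes, and the cardiomyocytes 83.1 to 159 CPM. The smooth muscle class also held 7034 to 10874 CPM on 8 endothelial markers, while the endocardial marker Npr3 was at 0 in all 6 of its libraries and all 7 epicardial markers were at 0 in its 2 YAP5SA tissue libraries. Levels of the other endocardial markers, and of the epicardial ones in its other libraries, are not given here. In cardiomyocytes Control tissue-2 held the highest Control level of all 9 genes, and values without it are given beside each result it decides. Overlapping genes carry joined names in 4 libraries and separate names in 2, Control tissue-3 and YAP5SA enriched, and no joined name holds any of the 9 genes. In all, 10 cell barcodes occurred in more than 1 library, and doublets were not removed.

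In cardiomyocytes, 6 of the 9 genes rose in YAP5SA and none fell by edgeR's quasi-likelihood test (adjusted p under 0.05 over all genes): Acta2, Tagln, Myh11, Myh9, Myh10 and Tpm4. All 9 passed the filter on low counts. Of all 10920 genes tested, 13.9% were called higher and 12.6% lower. The median log2 fold change of the 9 genes was 1.49, against 0.04 for all genes tested. Because the 9 genes were chosen with earlier results of these data known, neither comparison tests them as a set. Levels are given unscaled, as UMIs of a gene per 1000000 UMIs of the same cells, and fold changes after TMM scaling. Without that scaling the median gene lay 0.88 higher on the log2 scale. How many of all genes have levels that do not overlap between the genotypes was not counted, so such statements below only describe the gene named. The median share of mitochondrial UMIs in a cardiomyocyte was 14.3%, 8.10% and 16.7% in the Control enriched, tissue-2 and tissue-3 libraries and 9.92%, 8.30% and 8.68% in the YAP5SA enriched, tissue-1 and tissue-2 libraries, and its part in the results was not tested. Because a molecule is counted once at its 3' end, levels of different genes can be compared without regard to length.

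Acta2 is the smooth muscle actin. Its level in Control cardiomyocytes was 33.0 CPM in the enriched library, 167 in tissue-2 and 41.8 in tissue-3. In YAP5SA cardiomyocytes it was 2859 CPM in the enriched library, 3210 in tissue-1 and 2889 in tissue-2. All 3 YAP5SA libraries lay above all 3 Control libraries and close to each other, with a mean of 2986 ± 194 CPM (SD, n = 3) against 80.8 ± 75.2 CPM (SD, n = 3). The log2 fold change was 4.61 (SE 0.64, edgeR adjusted p = 0.00609). Without YAP5SA tissue-2 it was 4.86 with an edgeR adjusted p of 0.0512.

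Tagln encodes transgelin, which binds actin filaments. It had 0.694, 3.23 and 2.05 CPM in the Control enriched, tissue-2 and tissue-3 cardiomyocytes, and 40.8, 178 and 102 CPM in the YAP5SA enriched, tissue-1 and tissue-2 cardiomyocytes. The groups did not overlap, and the YAP5SA libraries spread over a wider range than for Acta2. The log2 fold change of 4.91 (SE 0.38, edgeR adjusted p = 0.00219) was the highest of the 9 genes.

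Myh11, the smooth muscle myosin heavy chain, had 1.39, 2.64 and 0.957 CPM in the same order of Control cardiomyocytes. Those Control values rest on 4, 9 and 7 UMIs. In YAP5SA cardiomyocytes Myh11 had 34.97, 69.8 and 77.0 CPM, all above every Control library. The log2 fold change was 4.39 (SE 0.39, edgeR adjusted p = 0.00219).

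The other smooth muscle genes did not pass the test, and for these Control tissue-2 was high. Cnn1, calponin 1, had 0.347 and 0.273 CPM in the Control enriched and tissue-3 cardiomyocytes but 122 CPM in tissue-2. Its YAP5SA values were 13.8, 8.49 and 27.0 CPM, between the low and the high Control libraries. The log2 fold change was -1.09 (SE 2.18, edgeR adjusted p = 0.743), and without Control tissue-2 it was 4.66 with an edgeR adjusted p of 0.00146.

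Myl9, the regulatory light chain used by smooth muscle and non-muscle myosin, was likewise high in Control tissue-2. It had 6.60, 112 and 7.52 CPM in the Control enriched, tissue-2 and tissue-3 cardiomyocytes and 37.2, 78.3 and 76.2 CPM in the YAP5SA ones. The log2 fold change was 0.29 (SE 0.87, edgeR adjusted p = 0.830), and 2.03 without Control tissue-2 (edgeR adjusted p = 0.000878). The direction of Cnn1 and the call of both genes therefore rest on that library.

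Actg2 is the gamma smooth muscle actin of gut and bladder. It had 9.37, 48.8 and 12.9 CPM in Control cardiomyocytes and 42.0, 11.3 and 9.52 CPM in YAP5SA cardiomyocytes. The groups overlapped, and the log2 fold change was -1.07 (SE 0.89, edgeR adjusted p = 0.405). The actins have nearly the same coding sequence, and how reads that fit more than 1 actin were counted is not given in the sources used here, so low Actg2 counts beside abundant Actc1 and Acta2 are uncertain. In the 4 libraries that join gene names, where Control tissue-2 is 1 of the 2 Control libraries and the other is enriched, these 3 genes were called lower by edgeR: Cnn1 by -3.44, Myl9 by -1.24 and Actg2 by -2.93 on the log2 scale. Fitted on the same 4 libraries with no term for preparation, none of the 3 was called. The share of all genes called in these fits is not given here.

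All 3 non-muscle genes rose. Myh9, the heavy chain of non-muscle myosin IIA, had 3.12, 17.9 and 6.56 CPM in Control cardiomyocytes and 109, 181 and 259 CPM in YAP5SA cardiomyocytes. The log2 fold change was 3.66 (SE 0.41, edgeR adjusted p = 0.00341). The lowest YAP5SA library lay well above the highest Control library.

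Myh10, the heavy chain of non-muscle myosin IIB, had 5.55, 14.7 and 6.56 CPM in Control and 30.2, 50.02 and 48.4 CPM in YAP5SA cardiomyocytes, with a log2 fold change of 1.49 (SE 0.31, edgeR adjusted p = 0.0161). Tpm4, a tropomyosin of stress fibres, had 12.5, 45.5 and 20.8 CPM in Control and 108, 117 and 121 CPM in YAP5SA cardiomyocytes, with a log2 fold change of 1.45 (SE 0.37, edgeR adjusted p = 0.0276). The libraries of the 2 genotypes did not overlap for either gene. Both calls were lost when any library other than Control tissue-2 was left out, with edgeR adjusted p from 0.0525 to 0.0984 for Myh10 and from 0.0813 to 0.119 for Tpm4.

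**Figure D1:**
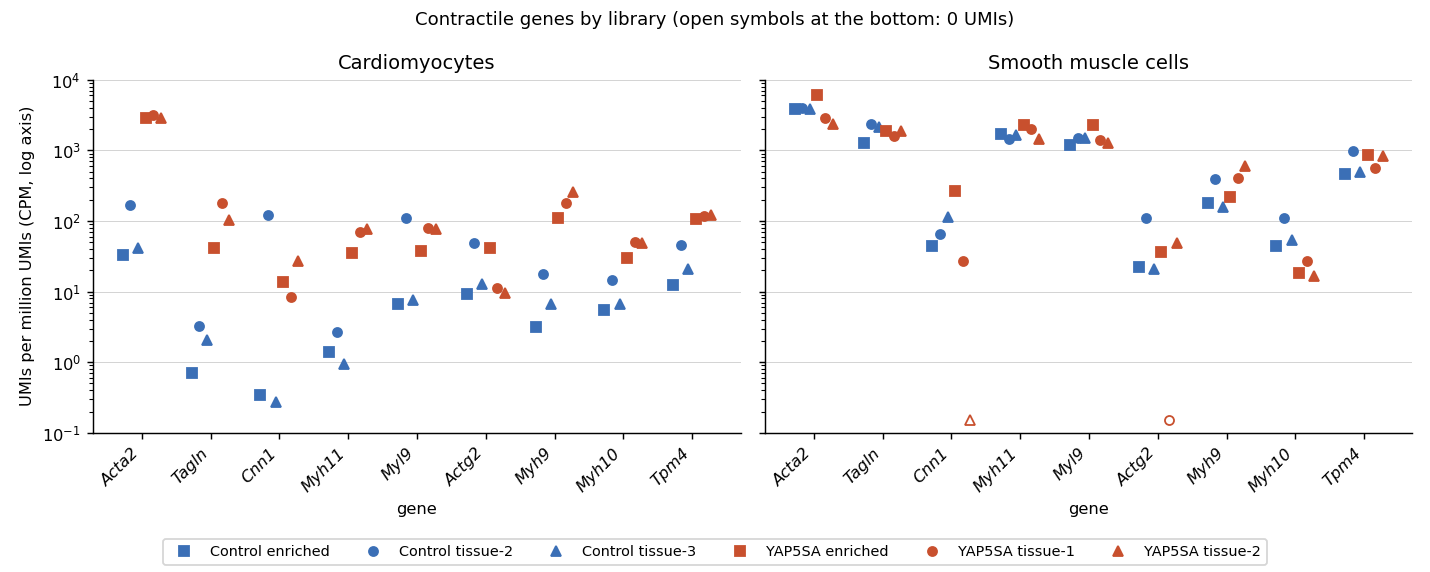
Levels of the 9 genes in UMIs per 1000000 UMIs (log axis) in cardiomyocytes on the left and smooth muscle cells on the right, 1 symbol for each library. In cardiomyocytes the YAP5SA libraries lie above the Control libraries without overlap for Acta2, Tagln, Myh11, Myh9, Myh10 and Tpm4, and Control tissue-2 is the highest library for Cnn1, Myl9 and Actg2. The levels are unscaled, and how many of all genes lie apart in this way was not counted.

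Set beside the smooth muscle cells, the YAP5SA cardiomyocytes held Acta2 at 47.2% to 123% of the level of the same library, and Tagln, Myh11 and Myl9 at 11.3% or less. Smooth muscle cells held 3840, 3947 and 3805 CPM of Acta2 in the Control enriched, tissue-2 and tissue-3 libraries and 6055, 2848 and 2356 CPM in the YAP5SA enriched, tissue-1 and tissue-2 libraries. In the order enriched, tissue-1 and tissue-2, the Acta2 level of YAP5SA cardiomyocytes was 47.2%, 113% and 123% of that in smooth muscle cells, against 0.859% to 4.24% in Control. Tagln reached 2.16% to 11.3% of the smooth muscle level in YAP5SA cardiomyocytes, Myh11 1.54% to 5.25% and Myl9 1.61% to 5.93%. In Control cardiomyocytes Tagln stood at 0.0539% to 0.137%, Myh11 at 0.0573% to 0.184% and Myl9 at 0.503% to 7.58%. The highest Myl9 value, that of Control tissue-2, lay above every YAP5SA library. Actg2 and Cnn1 had few UMIs in smooth muscle cells: Actg2 had 36.3, 0 and 49.4 CPM there in the YAP5SA libraries, from 4, 0 and 3 UMIs, beside 42.0, 11.3 and 9.52 CPM in cardiomyocytes, and Cnn1 had 263, 26.9 and 0 CPM, from 29, 1 and 0 UMIs, beside 13.8, 8.49 and 27.0 CPM. The non-muscle Myh9 stood at 42.6% to 49.9% in YAP5SA cardiomyocytes and Tpm4 at 12.6% to 20.7%. In Control these were 1.76% to 4.51% and 2.68% to 4.59%. Myh10 had 30.2, 50.02 and 48.4 CPM in YAP5SA cardiomyocytes. In smooth muscle cells of the same libraries Myh10 had 18.2, 26.9 and 16.5 CPM, from 2, 1 and 1 UMIs. The smooth muscle levels of Acta2 in YAP5SA tissue-1 and tissue-2 rest on 24 cells each, with 106 and 143 UMIs. Acta2 was uneven in that class too: the 10% of smooth muscle cells with the most held 29.5% to 52.1% of its UMIs. The class also held endothelial markers, as given above. No test was made of these levels between classes, since the clusters were drawn from the same counts.

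The ratio to Acta2 differed in the same way. For each 100 UMIs of Acta2, smooth muscle cells of the 6 libraries held 31.2 to 80.4 UMIs of Tagln, 36.3 to 70.8 of Myh11 and 31.2 to 54.5 of Myl9. YAP5SA cardiomyocytes held 1.43 to 5.56 UMIs of Tagln, 1.22 to 2.66 of Myh11 and 1.30 to 2.64 of Myl9. The ranges of these 3 genes did not overlap between the classes. For Myh9 they did, at 3.60 to 25.9 UMIs in smooth muscle cells and 3.80 to 8.98 in YAP5SA cardiomyocytes.

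**Figure D2:**
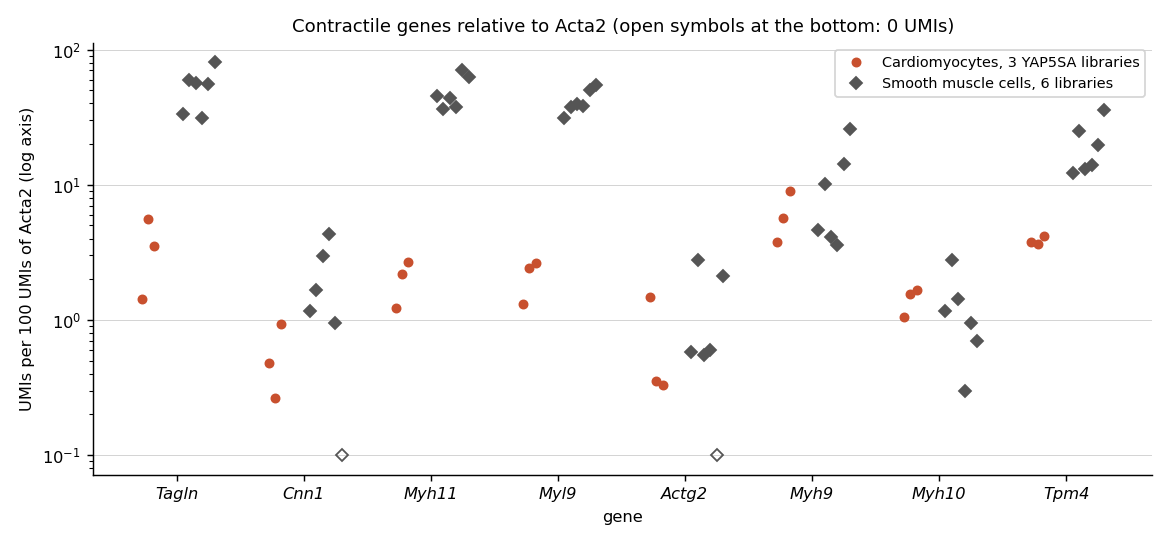
UMIs of each gene per 100 UMIs of Acta2 (log axis), for cardiomyocytes of the 3 YAP5SA libraries (circles) and smooth muscle cells of the 6 libraries (diamonds). Tagln, Myh11, Myl9 and Tpm4 lie lower in cardiomyocytes than in every smooth muscle sample, and Myh9 and Myh10 overlap.

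In the smooth muscle cells themselves, 6 of the 9 genes passed the filter and none was called by edgeR. No gene was: 0% of 992 genes were called, 45 had an unadjusted p under 0.05, and DESeq2 called none of the 9 either. The log2 fold changes of the 6 genes ran from -0.21 (SE 0.34, Acta2) to 0.78 (SE 0.44, Myh9), with edgeR adjusted p of 0.849 or more. Cnn1, Actg2 and Myh10 had too few UMIs to be tested. The standard errors of the 6 were 0.30 to 0.44, and a log2 fold change of 0.78 was not called at this depth.

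The difference between the genotype effects was tested in 1 model with the library as a block. Of the 9 genes, 5 had a more positive effect in cardiomyocytes than in smooth muscle cells, where 4.07% of 9674 genes were called in that direction and 2.98% in the other. The difference in log2 fold change was 5.01 (SE 0.40) for Acta2, 4.88 (SE 0.47) for Tagln, 4.18 (SE 0.48) for Myh11, 2.90 (SE 0.50) for Myh9 and 3.28 (SE 0.89) for Myh10. The edgeR adjusted p ran from 5.41e-31 for Acta2 to 0.00685 for Myh10. The fit has 4 residual degrees of freedom and took nearly all of its estimate of the spread from other genes, so these p-values rest on that shared estimate. In smooth muscle cells Myh10 had 44.4, 110 and 54.6 CPM in Control and 18.2, 26.9 and 16.5 CPM in YAP5SA, the latter from 1 or 2 UMIs a library. The Myh10 call was lost without Control tissue-3 or YAP5SA tissue-2, and Tpm4, with a difference of 1.23 (SE 0.43), had an edgeR adjusted p of 0.0556.

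**Figure D3:**
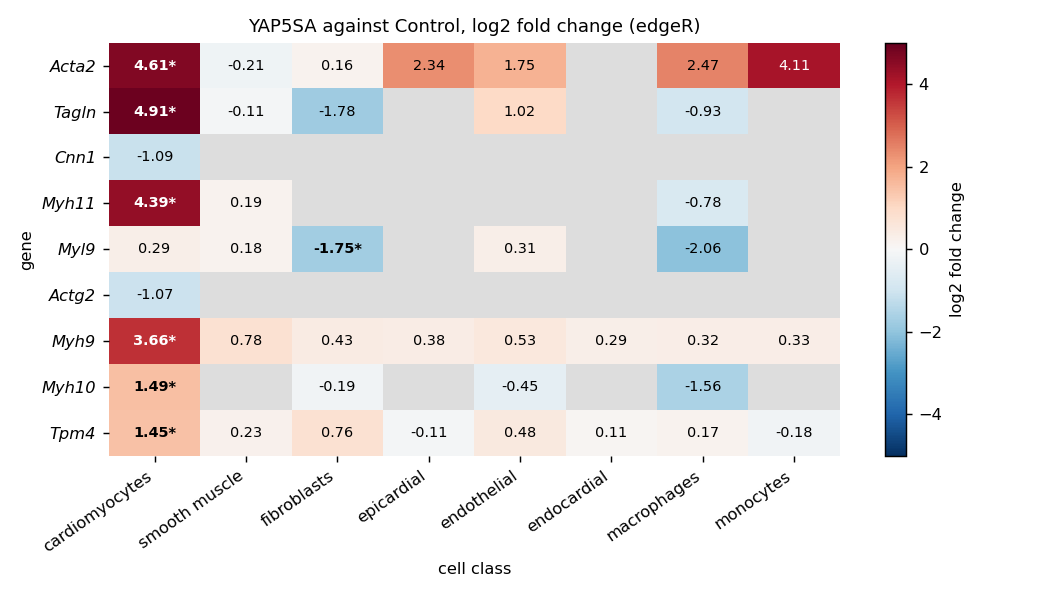
Log2 fold change of YAP5SA against Control for each of the 9 genes (rows) in each cell class (columns); an asterisk marks an edgeR adjusted p under 0.05 and grey a gene under the filter. Called values stand in the cardiomyocyte column for 6 genes and in the fibroblast column for Myl9.

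Acta2 was spread over many cardiomyocytes and was high in some. After each cell was thinned to 1000 UMIs, 63.3% of cardiomyocytes of the YAP5SA enriched library had an Acta2 UMI (exact 95% interval 60.0 to 66.5), 66.0% in tissue-1 (60.2 to 71.4) and 66.1% in tissue-2 (59.8 to 72.0). The Control shares of cardiomyocytes with Acta2 were 3.05% in the enriched library, 10.7% in tissue-2 and 3.11% in tissue-3. Macrophages, which should lack Acta2, had shares of 11.4%, 12.0% and 5.20% in the YAP5SA enriched, tissue-1 and tissue-2 libraries at the same depth, and 1.07% and 0% in the Control tissue libraries, where the latter is 0 of 79 cells and allows a share of up to 3.80%. The Acta2 share of YAP5SA cardiomyocytes lay above this background in each library. Before thinning, the median depth was 1876 to 2698 UMIs in these cardiomyocytes and 1213 to 1830 in the macrophages. The thinning left out 37 to 116 cardiomyocytes a YAP5SA library and 16 to 19 a Control library, and intervals cover counting error only.

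In unthinned cells of the YAP5SA libraries, a cardiomyocyte had a median of 3 to 4 Acta2 UMIs and at most 250 to 319. The Acta2 UMIs were uneven: the 10% of cardiomyocytes with the most held 58.4% to 64.2% of them. Cells with at least 10 Acta2 UMIs made up 21.0% to 31.0% of YAP5SA cardiomyocytes and 0% to 1.91% of Control ones.

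Myh9 and Tagln were found in fewer cells. At 1000 UMIs, 10.9%, 16.0% and 23.7% of YAP5SA cardiomyocytes had a Myh9 UMI, against 0.381% to 1.79% of Control ones. Macrophages make Myh9, and 22.5% to 32.3% of YAP5SA macrophages had a Myh9 UMI. Tagln was found in 3.04%, 12.5% and 10.2% of YAP5SA cardiomyocytes and in 0.0953% to 0.536% of Control ones, while YAP5SA macrophages had a Tagln share of 0.158% to 0.726%.

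Most of the signal lay in the cluster YAP5SAcm, which held 47.9% to 72.0% of YAP5SA cardiomyocytes and 85.0% to 91.0% of their Acta2 UMIs. In YAP5SAcm, Acta2 had 4654, 4083 and 3534 CPM in the YAP5SA enriched, tissue-1 and tissue-2 libraries. Control cells of that cluster, 16 to 50 a library, had 37.0, 342 and 441 CPM of Acta2 from 1, 50 and 37 UMIs. Within the cluster, Acta2, Tagln, Myh11 and Myh9 were called higher by edgeR, 4 of 7 genes tested, beside 5.1% of 6076 genes called higher and 2.58% lower. Their log2 fold changes were 3.67 (SE 0.70), 3.41 (SE 0.75), 3.28 (SE 0.85) and 2.43 (SE 0.63). None of the 9 genes was called in the cluster when any 1 YAP5SA library was left out (Acta2 edgeR adjusted p from 0.0728 to 0.164), and Myh11 and Myh9 were not called without Control tissue-3. Since the clusters were drawn from the same counts, this comparison is conditional on the clustering.

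In the other cardiomyocyte clusters Acta2 also lay higher in each YAP5SA library than in each Control library, and Tagln and Myh11 had few UMIs. In CM2, Acta2 had 32.9, 110 and 56.2 CPM in the Control libraries and 2436, 2944 and 1452 CPM in the YAP5SA libraries, with a log2 fold change of 4.75 (SE 0.60, edgeR adjusted p = 0.00516). Tpm4 rose in CM2 as well, by 2.18 on the log2 scale (SE 0.48, edgeR adjusted p = 0.0357), so that 2 of 3 genes tested were called beside 3.12% of 2048 genes called higher and 1.42% lower. The CM2 calls held for Acta2 and not for Tpm4 without Control tissue-3, YAP5SA tissue-1 or YAP5SA tissue-2, and for neither without Control enriched or YAP5SA enriched.

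In CM3, Acta2 had 33.6, 131 and 52.3 CPM in Control and 1193, 845 and 1608 CPM in YAP5SA. It was the 1 gene of 5 tested in CM3 that was called, with a log2 fold change of 4.01 (SE 0.55, edgeR adjusted p = 0.0252), beside 0.344% of 4074 genes called higher and 0.0245% lower. That call stood without Control tissue-2 and was lost without any other library.

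In CM1, the deepest cluster, Acta2 had 32.7, 166 and 32.8 CPM in Control and 431, 799 and 671 CPM in YAP5SA. The YAP5SA libraries were higher in CM1 too, yet none of the 7 genes tested was called by edgeR (Acta2 log2 fold change 2.81, SE 0.55, adjusted p = 0.185), where 0.0243% of 8233 genes were called higher. Acta2 and Myh9 had an unadjusted p under 0.05 in CM1, and 4 genes were called there without Control tissue-2: Acta2, Cnn1, Myl9 and Myh9. With the YAP5SAcm cells left out of all cardiomyocytes, 1 of the 9 genes was called, Tagln, with a log2 fold change of 4.09 (edgeR adjusted p = 0.0350), and Acta2 had 3.49 (edgeR adjusted p = 0.0542). The share of all genes called in that fit, and in CM1 without Control tissue-2, is not given here. In the other clusters of YAP5SA, Tagln was highest in CM2, with 66.0, 494 and 142 CPM from 25, 23 and 5 UMIs.

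**Figure D4:**
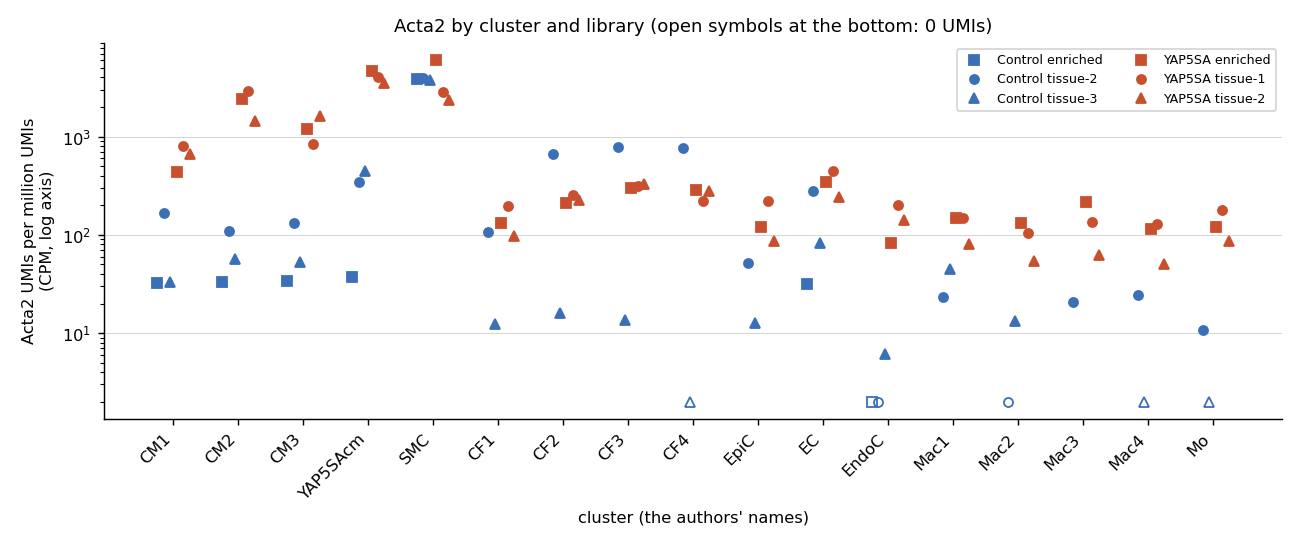
Acta2 in UMIs per 1000000 UMIs (log axis) in each cluster, 1 symbol for each library with at least 10 cells. In CM1, CM2, CM3 and YAP5SAcm all YAP5SA libraries lie above all Control libraries, and in the fibroblast clusters CF2, CF3 and CF4 Control tissue-2 is the highest.

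Among the actins and myosins of the cardiomyocytes, Acta2 took a larger share than the myosins Myh9 and Myh11 did. Acta2 made up 0.394%, 0.736% and 0.478% of the UMIs of the muscle actins Actc1, Acta1, Acta2 and Actg2 in the Control enriched, tissue-2 and tissue-3 libraries. In the YAP5SA enriched, tissue-1 and tissue-2 libraries Acta2 made up 23.1%, 45.9% and 39.1%, and cardiac actin, Actc1, 60.8%, 51.9% and 59.1%. Actc1 was 79.0% to 97.8% in Control. Acta1, the skeletal actin, stood at 20.1% in Control tissue-2 and 15.8% in YAP5SA enriched and at 1.58% to 2.19% in the other 4 libraries, so it did not follow genotype.

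Myosin heavy chains remained mostly cardiac. Of the UMIs of Myh6, Myh7, Myh9, Myh10 and Myh11, Myh9 made up 0.0259% to 0.498% in Control cardiomyocytes and 3.58%, 3.204% and 7.07% in the YAP5SA enriched, tissue-1 and tissue-2 cardiomyocytes. Myh11 made up 0.0115% to 0.0735% in Control and 1.15% to 2.10% in YAP5SA. The cardiac heavy chains Myh6 and Myh7 made up 47.2% to 55.0% and 34.5% to 47.0% in YAP5SA.

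**Figure D5:**
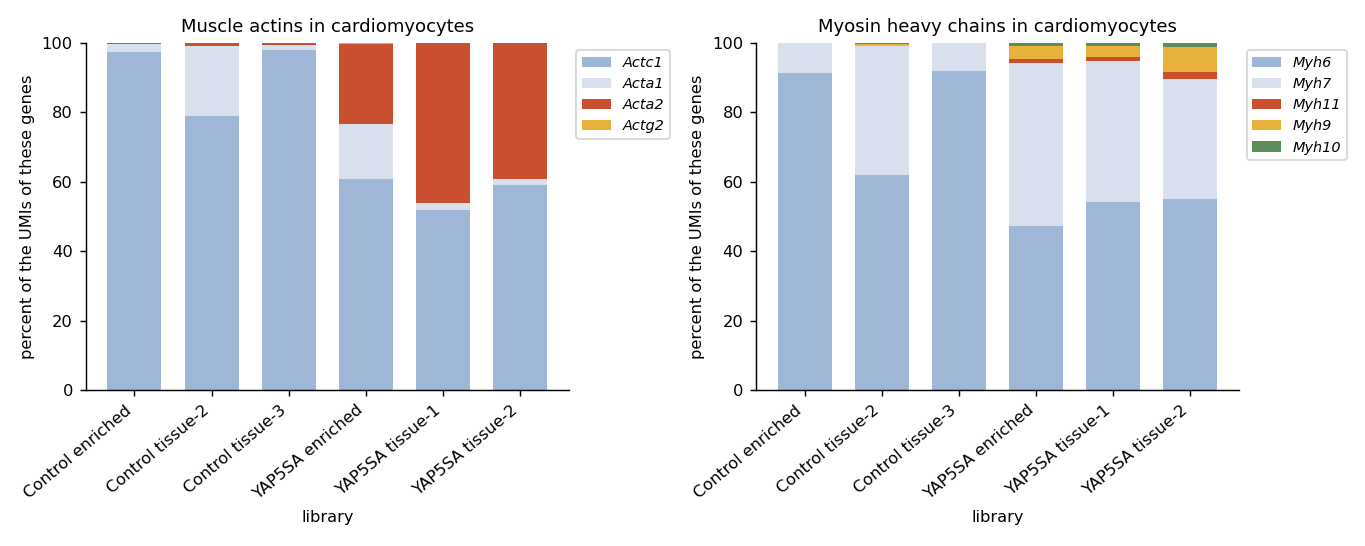
Share of each gene in the UMIs of the muscle actins (left) and of the myosin heavy chains (right) in cardiomyocytes, 1 bar for each library. Acta2 takes 23.1% to 45.9% of the actins in the YAP5SA libraries and under 1% in the Control libraries, while Myh6 and Myh7 fill most of every myosin bar.

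Some markers of other cells also moved with genotype within the cardiomyocyte class. Beside the counts that follow stand the 13.9% of all 10920 genes called higher there and the 12.6% called lower. The summed level of 10 macrophage markers was 22.2 to 282 CPM in Control and 388 to 979 CPM in YAP5SA cardiomyocytes, and 3 of 9 tested were called higher (C1qb, Mrc1 and Cd14). Of 4 epicardial markers tested, 3 were called higher (Wt1, Upk3b and Krt19), with a sum of 3.12 to 9.11 CPM in Control and 48.1 to 80.2 CPM in YAP5SA; Krt8 was at 0 in 2 YAP5SA libraries. Of 9 fibroblast markers, 8 were tested and none was called (79.1 to 417 CPM in Control, 489 to 700 CPM in YAP5SA). None of the 8 endothelial markers was called either (237 to 399 CPM and 303 to 734 CPM). The 1 endocardial marker tested, Npr3, was higher, with a sum over 4 markers of 6.60 to 13.0 CPM in Control and 38.4 to 53.2 CPM in YAP5SA. Of 8 cardiomyocyte markers 4 were lower, and their sum was 55172 to 75976 CPM in Control and 26819 to 36981 CPM in YAP5SA. The part of these other cells' RNA in the results above was not tested. Cardiomyocytes without a UMI of markers of other cells are described in the next paragraph.

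The 11 smooth muscle and pericyte markers summed to 83.1 to 152 CPM in Control and 113 to 159 CPM in YAP5SA cardiomyocytes. Of 5 tested none was called higher and Abcc9 was called lower, beside 13.9% of all genes higher and 12.6% lower. Abcc9, a potassium channel subunit, had 104, 27.3 and 61.5 CPM in Control and 17.1, 32.1 and 24.6 CPM in YAP5SA. Without Abcc9 the other 10 summed to 47.9, 55.8 and 58.3 CPM in Control and 142, 95.3 and 88.9 CPM in YAP5SA, so that the groups did not overlap; Abcc9 was left out, and the markers named here chosen, after their values were seen. Of the 11, 5 lay higher in every YAP5SA library than in every Control library (Itga8, Lmod1, Notch3, Pdgfrb and Vtn), the most abundant being Pdgfrb with 0.347, 2.35 and 2.60 CPM in Control and 10.2, 11.3 and 11.1 CPM in YAP5SA (edgeR adjusted p = 0.0580). Only Pdgfrb of these passed the filter. How many of all genes lie apart in this way was not counted. These levels are unscaled, and without scaling the median gene lay 0.88 higher on the log2 scale. The part of smooth muscle and pericyte RNA in the results was not tested. Kcnmb1 was at 0 in the 2 YAP5SA tissue libraries. In cardiomyocytes with no UMI of any of 49 markers of other cell types, 464, 84 and 122 in Control and 244, 55 and 21 in YAP5SA, Acta2 had 41.7, 186 and 25.2 CPM in Control and 2515, 3605 and 1691 CPM in YAP5SA. Of 4 genes tested in those cells, Acta2 (log2 fold change 4.77), Myh9 (4.35) and Tpm4 (2.85) were called, with edgeR adjusted p of 0.00240, 0.00310 and 0.00967, and Myl9 was not. In the same cells 7.85% of 3312 genes were called higher and 5.01% lower. Abcc9 is among the 49 markers, so cardiomyocytes with an Abcc9 UMI were left out of this comparison. Tagln, with 0, 2 and 0 UMIs in Control and 14, 15 and 2 in YAP5SA, was under the filter there. The cells kept held 1174284, 182515 and 357663 UMIs in Control and 451246, 90710 and 28978 in YAP5SA. All cardiomyocytes held 2880730, 3403956 and 7313337 UMIs in Control and 4432720, 1059553 and 1260354 in YAP5SA. A cell with few UMIs more easily lacks all 49 markers, so the choice depends on depth and is uneven between libraries. The part of depth in this comparison was not tested.

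Outside cardiomyocytes, Myl9 in fibroblasts was the 1 call by edgeR, and it was lower in YAP5SA, beside 0.762% of 10759 genes called lower. Fibroblasts had 0, 65.5 and 25.1 CPM of Myl9 in the Control enriched, tissue-2 and tissue-3 libraries and 10.9, 17.1 and 10.8 CPM in the YAP5SA enriched, tissue-1 and tissue-2 libraries. The groups overlap, the Control enriched library held 10 fibroblasts, and the call (log2 fold change -1.75, SE 0.53, edgeR adjusted p = 0.0418) was kept without a filter on low counts and without Control tissue-3 and lost under the 10 other settings. Acta2, which activated fibroblasts also make, had 0, 743 and 13.7 CPM in Control fibroblasts and 270, 270 and 280 CPM in YAP5SA fibroblasts. Control tissue-2 was again the library apart: without it Acta2 had a log2 fold change of 4.199 in fibroblasts (edgeR adjusted p = 0.000147) in place of 0.16, and Tagln 2.07 (edgeR adjusted p = 0.0366) in place of -1.78. So neither gene has a direction in fibroblasts that holds across the Control libraries.

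In the remaining 5 classes none of the 9 genes was called by edgeR, where 0% of genes were called higher, and 0% lower except 0.028% in monocytes. Acta2 had an unadjusted p under 0.05 in 4 of these classes and was under the filter in endocardial cells. Its level lay higher in every YAP5SA library used than in every Control library used in each of the 5 but endothelial cells. How many of all genes do so in these classes was not counted. Macrophages had 18.3 and 17.9 CPM of Acta2 in the Control tissue libraries and 132, 129 and 60.7 CPM in the YAP5SA libraries. The macrophage log2 fold change of Acta2 was 2.47 (SE 0.50) with an edgeR adjusted p of 0.219, and DESeq2 called it. Monocytes had 10.7 and 0 CPM of Acta2 in Control and 120, 179 and 86.4 CPM in YAP5SA, and endocardial cells 0, 0 and 6.06 CPM and 82.1, 202 and 140 CPM. Epicardial cells had 51.1 and 12.7 CPM of Acta2 in Control and 119, 219 and 85.8 CPM in YAP5SA. Endothelial cells overlapped between genotypes, at 31.7 to 277 CPM in Control and 244 to 451 CPM in YAP5SA. Control enriched, with 0 macrophages and monocytes and 7 epicardial cells, was left out of those 3 classes, and no term for preparation was fitted in them.

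Cardiomyocyte RNA was present in these classes: the 8 cardiomyocyte markers summed to 691 to 2346 CPM in YAP5SA macrophages. For each 1000 UMIs of those markers, YAP5SA macrophages held 56.1, 64.2 and 87.8 UMIs of Acta2, monocytes 50.1, 90.7 and 112, and the cardiomyocytes of the same libraries 77.3, 98.1 and 108. In YAP5SA enriched, tissue-1 and tissue-2 the same ratio was 106, 133 and 198 in endothelial cells, 46.6, 73.3 and 174 in endocardial cells and 28.3, 101 and 136 in epicardial cells, the last 2 classes from 8 to 17 Acta2 UMIs a library. The ratios of endothelial cells lay above those of the cardiomyocytes of the same library, those of macrophages below, and the other 3 classes on both sides. Control endothelial cells held 1.65, 77.5 and 17.0 in the enriched, tissue-2 and tissue-3 libraries. Control macrophages held 6.29 and 2.20 and Control tissue cardiomyocytes 3.04 and 0.647. The part of cardiomyocyte RNA in the Acta2 level of these classes was not tested.

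Myh9 and Tpm4 were made by every class and passed the filter in all 8. Outside cardiomyocytes the mean level of Myh9 ran from 188 CPM (SD 159, n = 3) in Control fibroblasts to 419 CPM (SD 69.9, n = 3) in YAP5SA endothelial cells, and the log2 fold changes from 0.29 to 0.78 without a call. Myh9 in YAP5SA cardiomyocytes, at 183 CPM (SD 75.4, n = 3), was thus within the spread of Control fibroblasts, against 9.20 CPM (SD 7.74, n = 3) in Control cardiomyocytes. The spread of Control fibroblasts is wide, and their enriched library held only 10 fibroblasts with 8952 UMIs. Tpm4 in YAP5SA cardiomyocytes, at 115 CPM (SD 7.04, n = 3), stayed below every other class, where means ran from 408 to 1232 CPM. Myh10 in YAP5SA cardiomyocytes, at 42.9 CPM (SD 10.99, n = 3), lay beside YAP5SA endothelial and endocardial cells at 44.0 (SD 13.8, n = 3) and 40.6 CPM (SD 11.5, n = 3), values that do not differ beyond their spread. Macrophages had 28.9 and 53.7 CPM of Myh10 in Control and 10.96 to 15.1 CPM in YAP5SA, which was not called (edgeR adjusted p = 0.260).

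Genes that work with the 9 were followed in cardiomyocytes by lists of their roles, which were also chosen with earlier results of these data known. Of 17 non-muscle actomyosin genes 16 were tested, and 9 rose and none fell, with a list median of 1.73. Beside this and the following lists stand the 13.9% of all genes called higher and 12.6% called lower, and the median of 0.04 over all genes. Those with the smallest p were Cnn3 (2.73, SE 0.31) and Cnn2 (3.47, SE 0.69), the non-muscle calponins, Myl6 (1.74, SE 0.29), the essential light chain of non-muscle and smooth muscle myosin, and Flna (3.60, SE 0.70), the actin crosslinker filamin A. Cnn2 had 14.4 to 101 CPM in Control and 556 to 810 CPM in YAP5SA cardiomyocytes. Myh14 was not tested.

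Of 13 smooth muscle companions 8 were tested, with 1 higher, 1 lower and a list median of -0.22, a share in each direction near that of all genes. Cald1, caldesmon, rose by 3.44 (SE 0.40), from 10.1 to 35.8 CPM in Control to 303 to 421 CPM in YAP5SA. Smtn, smoothelin, fell, with a log2 fold change of -2.04 (SE 0.37), from 47.0 to 89.6 CPM to 30.1 to 34.9 CPM. The other 6 tested were not called, and 5 were not tested.

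For SRF and related factors 6 genes were tested. Mkl1, the SRF coactivator that binds free actin, rose by 2.32 (SE 0.49). Fhl2, a LIM protein abundant in the heart, was called lower, with -1.64 (SE 0.49). The other 4 were not called, and 1 call in each direction is also near the share of all genes. Of 17 sarcomeric counterparts 16 were tested; none rose and 5 fell, with a list median of -1.46. The lowest p were those of Tnni3 (-3.07, SE 0.60), Myl3 (-2.82, SE 0.58), Myl2 (-2.90, SE 0.62) and Mybpc3 (-1.73, SE 0.41), and Actc1 was the fifth. All calls of these lists are by edgeR with adjusted p under 0.05.

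The genes most like Acta2 over 44 sums of a class in a library were Palld (Pearson r = 0.82), Ppp1r12b (0.77), Tatdn2 (0.70), Map6 (0.70) and Kcnab1 (0.70), among 10919 genes on log2(CPM + 1). Palld, the actin-bundling palladin, had 71.7 to 118 CPM in Control and 440 to 491 CPM in YAP5SA cardiomyocytes, and Map6 0.547 to 1.76 CPM and 31.6 to 68.9 CPM. Of these, Palld, Map6 and Kcnab1 were called higher in cardiomyocytes by edgeR and Ppp1r12b and Tatdn2 were not, beside 13.9% of all genes. The 44 sums include the cardiomyocyte sums that were tested, so these calls are not independent of how the genes were picked. Those most like Myh9 were Eef1a1 (0.90), Rac1 (0.90), Tpm3 (0.88), Lgals9 (0.88) and Gnb1 (0.88). Among the 9 genes, Myh9 and Tpm4 had r = 0.84 and Myh11 and Myl9 0.82. Acta2 had r from 0.54 (Myl9) to 0.69 (Myh11) with the other smooth muscle genes, and from -0.0009 (Tpm4) to 0.26 (Myh10) with the non-muscle genes. Sums of the same library share its depth and its free RNA, so these values describe and carry no p.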

How the data were processed

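Drop-seq libraries of Control and YAP5SA hearts, 3 of each, were given as 1 table of UMI counts per gene and cell and 1 table of cells with the authors' clusters and, as deposited, the mitochondrial fraction of each cell. The deposited counts are whole numbers and not normalized; the submitters' processing notes name STAR, Picard and Seurat 2.3.4, and the genome build and the counting settings are not given in the sources used here. Counts were summed per class or cluster and library where a library had at least 10 cells. Because 4 libraries join the names of overlapping genes, 833 joined names were merged into 689 families, and 1246 features that occur under 1 way of naming alone were not tested. The sums were tested with edgeR 4.0.16 (quasi-likelihood F test, TMM, filterByExpr, a term for preparation where both genotypes had both preparations, Benjamini-Hochberg over all genes tested, threshold 0.05), and the scripts were tested on simulated data. DESeq2 1.42.0 was an alternative. The standard error is the log2 fold change divided by the square root of F. The difference between classes was tested with the library as a block. Likeness between genes is Pearson's r of log2(CPM + 1) over sums with at least 20000 UMIs. Depth was 3382656 to 13483791 UMIs a library. The 9 genes and the lists were chosen with earlier results of these data known. All 9 genes are named whatever their result, of each list at most 4 called genes with the smallest p, and 5 genes most like Acta2 and Myh9. Motifs were searched in RefSeq promoters of GRCm38.p6. The result of 1 further gene list is not reported here.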

Additional observations from a re-analysis of the deposited data

Results flagged for a closer look

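For 5 of the 9 genes the genotype effect differed between cardiomyocytes and smooth muscle cells by the test of the difference itself (edgeR, adjusted p under 0.05). The difference in log2 fold change, cardiomyocytes minus smooth muscle cells, was 5.01 for Acta2, 4.88 for Tagln, 4.18 for Myh11, 2.90 for Myh9 and 3.28 for Myh10. The Myh10 value rests on 4 UMIs in YAP5SA and 20 in Control smooth muscle cells. No group had 4 or more libraries, so no library was tested as an outlier.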

How the results depend on the processing

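In cardiomyocytes 6 of the 9 genes were called under RLE scaling, library totals alone, DESeq2, no filter and no preparation term, as in the reported result, and 4 in the tissue libraries alone. Leaving out 1 library gave 3 to 8, the lowest without YAP5SA tissue-2 and the highest without Control tissue-2, where Cnn1 reversed to 4.66 (its range was -2.45 to 4.66). Without the YAP5SAcm cells 1 was called and in cells free of other markers 3. In the 4 libraries with joined names 8 were called, 5 higher and 3 lower (Cnn1 -3.44, Actg2 -2.93 and Myl9, reversed to -1.24); the preparation term there rests on 1 enriched library, of Control. Without that term 4 were called, all higher. Without Control tissue-2 and YAP5SA enriched together 9 were called, 8 higher and Actg2 lower, and Cnn1 reversed to 4.81; here too 1 enriched library carries the term. The last 2 settings, and all those in single clusters, were chosen after seeing the data. The causes were not tested. For these settings and those below, the share of all genes called is not given, except in cells free of other markers. Their counts of the 9 genes therefore stand without a background.

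In smooth muscle and epicardial cells 0 were called under every setting run. In fibroblasts the 1 call became 0 under RLE, totals alone, DESeq2, no preparation term and at least 30 cells, and 2 without a filter; leaving out 1 library gave 0 to 2, with Tagln from -2.64 without Control tissue-3 to 2.07, reversed, without Control tissue-2. In endothelial cells and monocytes 1 was called without a filter, in endocardial cells 1 without a filter and 1 with at least 30 cells, and in macrophages 1 by DESeq2 and 1 without a filter. Leaving out 1 library gave 0 to 1 in monocytes, 0 to 4 in CM1, CM2 and CM3, and 0 to 5 in YAP5SAcm. Of the differences between cardiomyocytes and smooth muscle cells, 5 in the reported fit, leaving out 1 library gave 4 to 8. With 2 libraries of a genotype left, the spread is shared with the other genotype; where 1 enriched library is left, the lone library is assumed to vary like the rest.

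At full depth the share of cardiomyocytes with an Acta2 UMI was 7.21%, 27.3% and 11.6% in Control (enriched, tissue-2, tissue-3) and 77.7%, 77.5% and 79.4% in YAP5SA (enriched, tissue-1, tissue-2). For Myh9 it was 8.68% and 4.09% in the Control tissue libraries and 26.9%, 32.1% and 50% in YAP5SA. No paired analysis was possible because the titles number the YAP5SA tissue libraries 2 and 3 and the table of cells 1 and 2, so the numbers do not carry over.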
